A study of Ovis aries with 6 samples.

Results

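The miR-30 family was examined in small RNA libraries from sheep longissimus muscle, the long muscle of the back. Members were all miRNA names of the deposited count table that read miR-30a, miR-30b, miR-30c, miR-30d or miR-30e, alone or followed by an arm or locus suffix, whatever species prefix they carried. This gave 13 of 10430 names, which stand in 27 of 11161 rows. Where a name had several rows, the row with the highest total count was used. The 2 groups were breeds with 3 libraries each. One was the Small Tail Han breed (STH) and the other the Qianhua Mutton Merino (QHMM), and the labels give natural conditions for both and no treatment, age or sex. Single-end Ion Proton sequencing of size-selected small RNA was used to ask how the muscle miRNA profiles of these breeds compare. The labels do not say that each library came from another animal, so the spread on which the p-values rest is that between libraries and may be technical.

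miRNAs guide Argonaute proteins to messenger RNAs, mainly through the seed, bases 2 to 8 from the 5′ end, and lower the stability and translation of the messages they pair with. A miRNA hairpin can yield a mature strand from either arm, called 5p and 3p. In the miR-30 family the 5p strand is the usual guide and its seed is shared by all members, so that they can pair with the same sites. The family is known as abundant in skeletal and heart muscle and has been studied in muscle differentiation, fat cell differentiation and heart fibrosis.

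The sequences as listed are shown here to make visible where members differ and therefore where reads could be assigned to more than 1 of them. The capitals mark the seed, and all are written 5′ to 3′ with T for U. The 5p strands of the 5 members were the following.
miR-30c: tGTAAACAtcctacactctca
miR-30b: tGTAAACAtcctacactcagc
miR-30a-5p: tGTAAACAtcctcgactggaagc
miR-30d: tGTAAACAtccccgactgg
miR-30e-5p: tGTAAACAtccttgactggaag
A further 5p sequence, named after rat miR-30c-5p, came from a predicted hairpin on sheep chromosome 9 and differed from miR-30c by 1 base past the seed over the bases they share.
miR-30c-5p: tGTAAACAccctacactctcagc
The 3p strands with counts in every library were the following.
miR-30a-3p: cTTTCAGTcggatgtttgcag
miR-30e-3p: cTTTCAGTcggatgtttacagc
miR-30c-2-3p: cTGGGAGGaggctgtttactc

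Of the 13 names, 8 carried the 5p seed GTAAACA, which pairs with the site TGTTTAC. These 8 names shared the first 8 bases and were identical at 13 of the 19 positions that the shortest of them covers. Positions below are counted from 1 at the 5′ end, with the base of the first-named member first. miR-30c and miR-30b shared their first 18 bases and differed by T19A, C20G and A21C. miR-30a-5p differed from miR-30d by T12C and from miR-30e-5p by C13T, 1 base in each case. The predicted chromosome 9 sequence differed from miR-30c by T9C. By sequence the 5p strands thus formed a close pair, miR-30b and miR-30c, and a close trio, miR-30a, miR-30d and miR-30e. miR-30a-3p and miR-30e-3p had the seed TTTCAGT in common and differed by G18A. The sequence listed as miR-30c-2-3p, also from a predicted hairpin on chromosome 9, differed from the rat miR-30c-2-3p row by A8G (rat base first), a base inside the seed.

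Outside the family, the 5p seed was found at 1 row, rat miR-384-5p, with 6 counts over the 6 libraries, against 1597444 counts at the 19 family rows with this seed. The 3p seed TTTCAGT was found outside the family at miR-205-3p with 3 counts, and TGGGAGA, the seed of the rat miR-30c-2-3p row, at miR-6788-5p (5 counts), miR-6958-5p (4 counts) and a predicted locus on chromosome 2 (2 counts). No row outside the family held the whole sequence of a miR-30 row or lay wholly within one. Rows shifted along the strand were not searched for. In the sheep genes of RefSeq (assembly ARS-UI_Ramb_v3.0, used here for names and order only because the files name Oar_v3.1), MIR30D and MIR30B are direct neighbours on chromosome 9. MIR30A is on chromosome 9 as well, within a long noncoding RNA gene, and MIR30C is on chromosome 1 within NFYC, which encodes a subunit of the transcription factor NF-Y.

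How the table was counted bears on the levels of the members. The sheep rows held 99.8% of the counts of the 27 rows, and the rat rows held 0.225%. For 17 sequences that stand in the table both as a sheep row and as a row of another source, with at least 1000 counts, the sheep row held a median of 99.98% of the counts and at the least 99.85%. For these sequences, reads were thus not counted in full at each row that lists them. Predicted loci were another case: the sequence of miR-1, the most abundant name, was listed at 2 predicted loci with 15252614 and 15246440 counts, 49.98% to 50.03% at the first in every library. The counts of these loci differed by no more than an even split of reads between them would give (chi-square per degree of freedom 0.743 over the 6 libraries). Keeping 1 row per name therefore leaves one of these miR-1 rows out of the total, and the second row made up 93.5% of the difference between the totals. miR-30e had no sheep row. Its rat row differs from the sheep row of miR-30a-5p by 1 base, and the number of mismatches allowed is not given in the sources used here. Whether reads of miR-30e were counted under miR-30a-5p was not tested, and the levels of both names depend on it. The names miR-30b-5p, miR-30d-5p and miR-30c-5p, from rat or predicted rows, overlap the sheep rows of miR-30b, miR-30d and miR-30c in sequence and are described here as rows, not as separate miRNAs.

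The libraries had 8062231 to 11282332 counts over all rows, and 5572865 to 7930202 with 1 row per name. CPM (the count divided by the latter total and scaled to the usual CPM unit) is the measure of level below. The muscle fibre miRNAs (miR-1, miR-133, miR-206, miR-208b and miR-499) summed to between 450124 CPM in STH replicate 1 and 546371 CPM in QHMM replicate 2, and the liver miRNA miR-122 had at most 3.55 CPM. The epithelial list (miR-200, miR-141, miR-429, miR-203 and miR-205) had 4.37 to 29.4 CPM, the leukocyte list (miR-142, miR-223, miR-150 and miR-155) 1060 to 1815 CPM, the fibroblast list (miR-199a and miR-214) 1887 to 3617 CPM, endothelial miR-126 9966 to 22831 CPM and the smooth muscle list (miR-143 and miR-145) 32381 to 52838 CPM. The red blood cell miRNAs miR-451, miR-144 and miR-486 summed to 83743 CPM in QHMM replicate 3 and to 7181 to 19771 CPM in the other libraries. In bulk tissue, a lower share of a cell type and less RNA per cell cannot be told apart.

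The miR-30 5p strands formed one of the most abundant seed groups of this muscle. The 8 names with the 5p seed summed to 40572, 40897 and 38010 CPM in QHMM replicates 1 to 3 and to 31887, 35770 and 41108 CPM in STH replicates 1 to 3. The QHMM mean was 39826 ± 1582 CPM (SD, n = 3) and the STH mean 36255 ± 4630 CPM (SD, n = 3), and the breeds overlapped. Against the total of all rows, the sum was 29795, 28269 and 27900 CPM in QHMM and 23704, 25433 and 28894 CPM in STH, so that the highest library was STH replicate 3 by the first total and QHMM replicate 1 by the second, and the lowest STH replicate 1 by both. Summed by seed with 1 row per name, GTAAACA took the 4th place by mean, with 38041 CPM. It came after the seeds of miR-1 and miR-206 (402494 CPM), of miR-133 (113446 CPM) and of miR-26 (42203 CPM), and before that of let-7 (36203 CPM). The place with all rows was not computed, and the order of the close sums was not tested. The miR-30 5p strands took from 3.19% to 4.11% of a library by the first total and from 2.37% to 2.98% by the second. The lowest and the highest library differed by 1.29-fold and 1.26-fold by these totals. STH replicate 1 also had the lowest sum of muscle fibre miRNAs, and relative to that sum the miR-30 5p strands lay between 6.94% and 7.66% in every library, a range of 1.10-fold. With all rows of the muscle fibre names, a choice made after seeing the data, this was 3.98% to 4.64%, a range of 1.17-fold. What part the share of muscle RNA has in the sum was not tested.

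By mean CPM over the 6 libraries miR-30c was the most abundant member, above miR-30b in 5 of them. It had 11142, 14590 and 12882 CPM in the QHMM libraries, in the order of their replicate numbers, and 9806, 10448 and 12164 CPM in STH, and stood 13th among all names by mean CPM over the 6 libraries. It made up 31.1% of the 5p strands of the 5 members on average. Its highest values were in QHMM replicates 2 and 3, and the breeds overlapped.

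miR-30b, whose gene lies next to that of miR-30d, had 9598, 9626 and 10302 CPM in QHMM and 8713, 10452 and 11214 CPM in STH. It varied little, with 1.29-fold between its lowest and highest library, and it stood 19th among all names.

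miR-30a-5p had 9639, 9506 and 8127 CPM in QHMM and 8127, 8246 and 8120 CPM in STH. It varied little as well, by 1.19-fold over the 6 libraries. Against the total of all rows the range was 1.24-fold, beside 1.22-fold for miR-30b, so that which of them was the steadier depends on the total. The STH libraries had an SD of 71.1 CPM (n = 3) and the QHMM libraries one of 837 CPM (n = 3), and the lowest QHMM library lay at the STH level.

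miR-30d, listed with only 19 bases, was the most variable of the 5p strands with at least 10 CPM. It had 10107, 7078 and 6620 CPM in QHMM and 5176, 6541 and 9515 CPM in STH, a range of 1.95-fold. QHMM replicate 1 and STH replicate 3 stood above the other 4 libraries, 1 of each breed. For comparison, the median range over the 68 names of at least 1000 CPM was 1.76-fold. The neighbouring miR-30b did not show this pattern: the ratio of miR-30b to miR-30d was 0.950 in QHMM replicate 1 and 1.18 in STH replicate 3, and between 1.36 and 1.68 in the other 4 libraries. These ratios describe single libraries and were not tested.

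miR-30e-5p, counted at its rat row, had 77.8, 93.1 and 70.0 CPM in QHMM and 59.4, 73.9 and 85.9 CPM in STH. It lay far below the 4 abundant members in every library. The rows of rat or predicted origin that overlap sheep rows had still less, with means of 3.46 CPM for miR-30c-5p, 3.13 CPM for miR-30d-5p and 0.617 CPM for miR-30b-5p. miR-30d-5p extends the 19 bases of the sheep row of miR-30d by 3 bases and had 134 counts in all, where the sheep row had 318721.

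**Figure D1:**
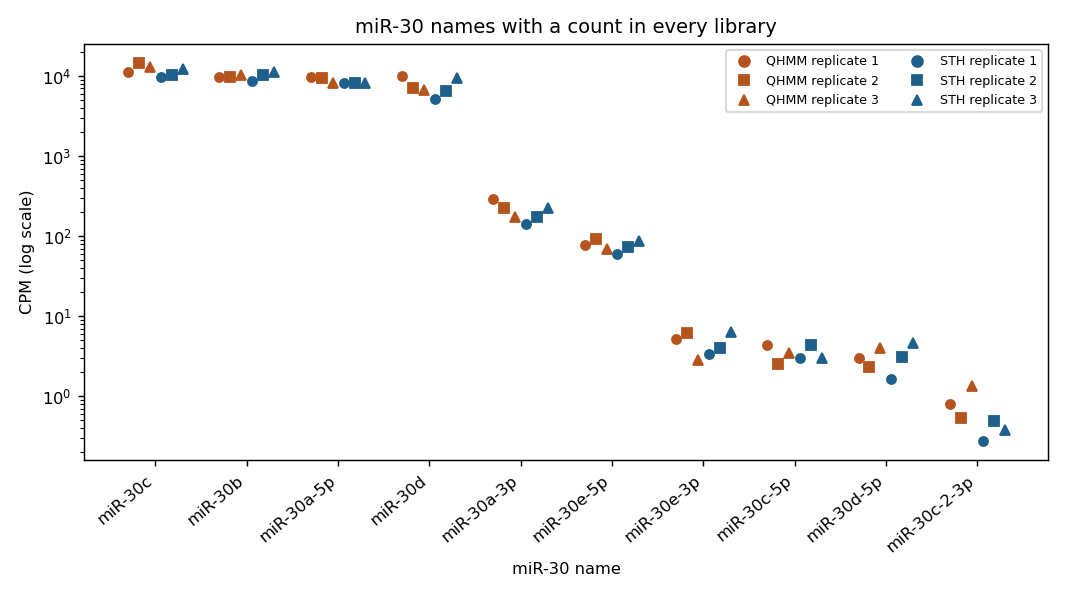
CPM (log scale) of the 10 miR-30 names with a count in each of the 6 libraries. Each point is 1 library, coloured by breed and shaped by replicate. miR-30c, miR-30b, miR-30a-5p and miR-30d lie together (means of 7506 to 11839 CPM), and the other names lie at means of 206 CPM or less.

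The 4 abundant members were close to each other in level. Neighbours in the order by mean CPM were compared within each library as log2 ratios, with an exact sign-flip permutation test over the 6 libraries (two-sided, smallest p possible 0.03125, Benjamini-Hochberg adjusted over 4 pairs). The order was taken from these same libraries, so the pairs and their directions were set by the data tested. The p-values therefore do not back the order. miR-30c exceeded miR-30b by 1.18-fold (log2 ratio 0.24 ± 0.21, SD, n = 6), in 5 of 6 libraries (exact p = 0.0625, adjusted 0.0833). miR-30b exceeded miR-30a-5p by 1.16-fold (0.21 ± 0.20), also in 5 of 6 libraries (exact p = 0.0625, adjusted 0.0833). miR-30a-5p exceeded miR-30d by 1.18-fold (0.23 ± 0.33), in 4 of 6 libraries (exact p = 0.156, adjusted 0.156). None of these 3 steps passed the threshold of 0.05, and the libraries ran from a log2 ratio of -0.23 to 0.65 over them. Levels are counts of reads and were not scaled by listed length, which is 19 bases for miR-30d and 23 for miR-30a-5p. The step from miR-30d to miR-30e-5p was 96.3-fold (log2 ratio 6.59 ± 0.28, lowest library 6.25) and was seen in 6 of 6 libraries. It reached the smallest p that 6 libraries allow (exact p = 0.03125, adjusted 0.0833), and its size depends on where miR-30e reads were counted, which was not tested.

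**Figure D2:**
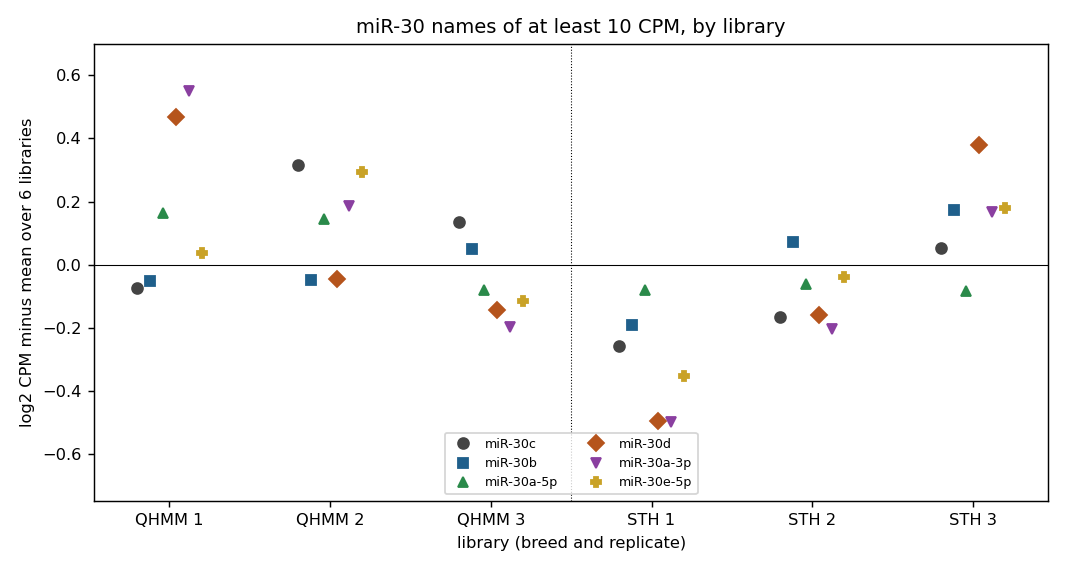
log2 CPM minus the mean over the 6 libraries (y axis) for the 6 miR-30 names of at least 10 CPM, by library (x axis). Each point is 1 name in 1 library. miR-30d and miR-30a-3p reach 0.47 and 0.55 in QHMM replicate 1 and -0.50 in STH replicate 1, while miR-30a-5p stays between -0.083 and 0.16.

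The 3p strands, the usual passenger strands, were a small part of the family. miR-30a-3p had 294, 228 and 175 CPM in QHMM and 142, 174 and 225 CPM in STH. Its range of 2.07-fold was wider than the 1.19-fold of miR-30a-5p from the same hairpin. It took 2.35% of the counts of the hairpin (exact binomial 95% interval 2.30% to 2.40%, counting error only), and between 1.72% in STH replicate 1 and 2.96% in QHMM replicate 1. miR-30e-3p had 5.17, 6.10 and 2.82 CPM in QHMM and 3.41, 4.05 and 6.43 CPM in STH. It took 5.75% of the counts of its hairpin (exact binomial 95% interval 4.99% to 6.58%, counting error only), with both arms counted at rat rows. miR-30e-3p, like its 5p strand, differs by 1 base from a sheep row of miR-30a. The 3p shares of both hairpins thus depend on where miR-30e reads were counted, which was not tested.

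Beside the sheep rows of miR-30b, miR-30c and miR-30d, almost no 3p counts were listed. miR-30b-3p had 2 counts in 1 library, 0.000476% of the hairpin (exact binomial 95% interval 5.8e-05% to 0.00172%). miR-30d-3p had 3 counts in 2 libraries, 0.000941% (0.000194% to 0.00275%). Both were counted at rat rows, while their 5p strands were counted at sheep rows. miR-30c-2-3p had 6, 3 and 10 counts in QHMM and 2, 3 and 3 counts in STH at the predicted row that was used. The same sequence at another predicted row had 10, 0 and 0 counts in QHMM and 5, 2 and 4 counts in STH. Although the breeds did not overlap in CPM at the first row, no difference can be read from so few counts spread over 2 rows, and the name did not pass the filter on low counts. The other predicted row (21 counts in all) and the miR-30c-5p row (146 counts) are listed as mature and star strands of 1 predicted hairpin. The row that was used is from another predicted locus. Neither locus was shown to share a hairpin with the sheep row of miR-30c.

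For no hairpin did the ratio of the arms pass the threshold between the breeds, which 3 libraries against 3 cannot reach in this test. As log2 of 5p over 3p counts (pseudocount 0.5 counts), miR-30a had 5.32 ± 0.26 (SD, n = 3) in QHMM and 5.53 ± 0.34 (SD, n = 3) in STH, and miR-30e had 4.14 ± 0.40 and 3.99 ± 0.23. The differences, QHMM minus STH, were -0.21 (exact permutation test, two-sided, p = 0.40, adjusted over 5 hairpins 0.625) and 0.14 (exact p = 0.80, adjusted 0.80). The smallest p possible is 0.10. miR-30d reached it, with 16.69 ± 0.48 (SD, n = 3) in QHMM and 15.27 ± 1.16 (SD, n = 3) in STH, a difference of 1.42 without overlap of the breeds (exact p = 0.10, adjusted 0.50). It rests on the 3 counts of miR-30d-3p, so that the value in the libraries with 0 counts is set by the pseudocount and the 5p count. The differences of miR-30b and miR-30c were 0.68 (exact p = 0.50, adjusted 0.625) and -0.80 (exact p = 0.20, adjusted 0.50), from at most 10 counts of the 3p strand per library. The miR-30c value compares the sheep row with a predicted locus, and these strands were not shown to share a hairpin.

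**Figure D3:**
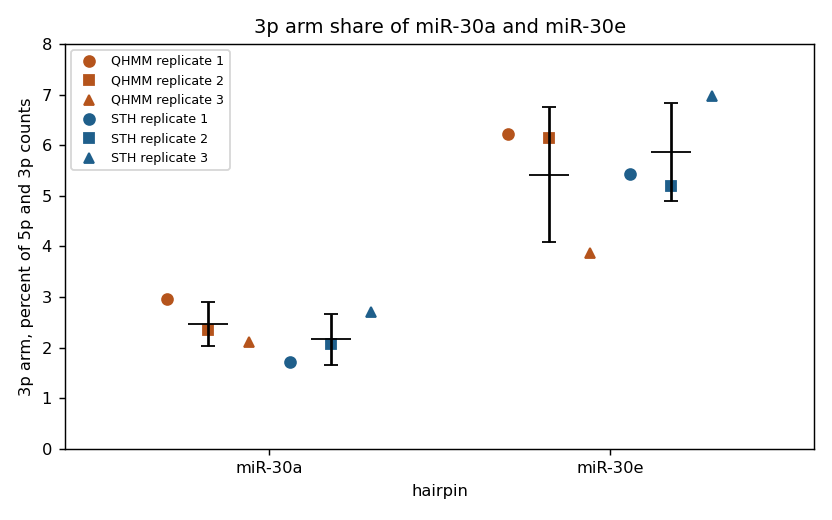
Share of 3p counts among the 5p and 3p counts of the hairpins miR-30a and miR-30e, in percent. Points are libraries, and black bars give each breed's mean with its SD (n = 3), 2.47% ± 0.44 and 2.16% ± 0.50 for miR-30a and 5.42% ± 1.34 and 5.87% ± 0.96 for miR-30e in QHMM and STH; the breeds overlap for both.

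No miR-30 name tested passed the threshold between the breeds, and the libraries of the breeds overlapped for each of them. Of the 13 names, 9 passed the filter on low counts and were tested with edgeR (quasi-likelihood test) over 1274 names. Of the 9, 0 had an adjusted p under 0.05, where 2.2% of all names tested did, 4 of them higher in QHMM and 24 higher in STH. At an unadjusted p under 0.05 the count was also 0, against 13.7% of all names, and DESeq2 called 0 of the 9, against 3.86% of the names it tested. In 0 of the 9 did the libraries of one breed all lie on one side of the other, against 17.2% of all names. The median log2 fold change of the 9, QHMM over STH, was 0.14, with 0.031 over all names tested. Of the 9 estimates 6 were above 0 and 3 below. Those below include miR-30d-5p (-0.0059) and miR-30c-5p (-0.022), which overlap sheep rows and are not taken here as separate miRNAs. Without QHMM replicate 3, the library with the high red blood cell sum, the count of calls among miR-30 names was also 0.

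The widths of the intervals show which differences these libraries could have missed. The largest estimate was that of miR-30a-3p, at 0.35 on the log2 scale, with a standard error of 0.29 and a 95% interval of -0.28 to 0.98 (edgeR, adjusted p = 0.635). miR-30c followed with 0.27 (standard error 0.22, adjusted p = 0.630) and an interval of -0.21 to 0.74, or 0.867-fold to 1.67-fold. For miR-30a-5p the estimate was 0.15, with an interval of -0.28 to 0.58. For miR-30d it was 0.15, with -0.38 to 0.68, and leaving out QHMM replicate 1 turned it to -0.019. miR-30b, the name with the estimate nearest to 0 among the 4 abundant ones, had -0.044, with an interval of 0.715-fold to 1.31-fold. The interval of miR-30e-5p ran from 0.709-fold to 1.72-fold around 0.14. The 3 names of a few CPM (miR-30e-3p, miR-30d-5p and miR-30c-5p) had estimates between -0.022 and 0.015 and wide intervals, from 0.509-fold to 1.95-fold for miR-30d-5p.

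**Figure D4:**
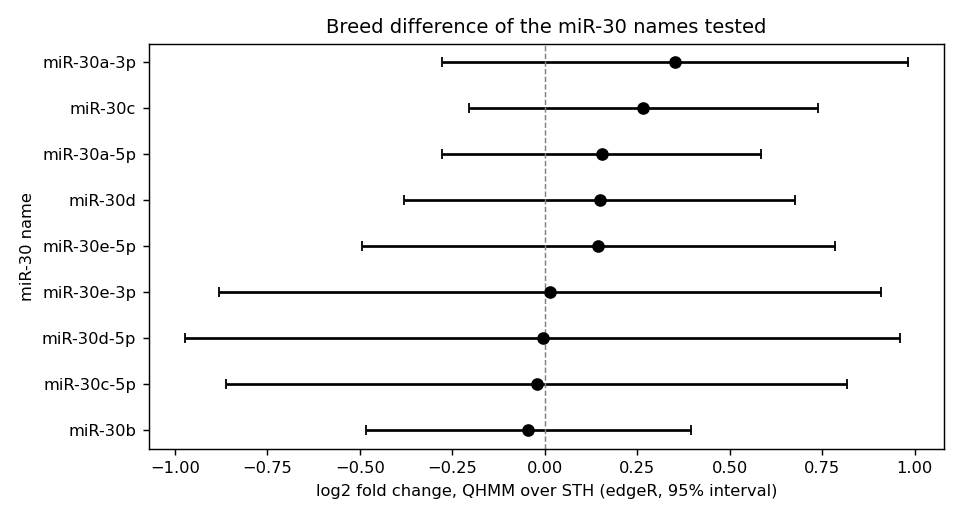
log2 fold change, QHMM over STH, of the 9 miR-30 names tested, with 95% intervals from edgeR (3 libraries per breed). Every interval holds 0. Those of miR-30a-5p, miR-30b, miR-30c and miR-30d are the narrowest, from -0.48 to 0.74 together.

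Other miRNAs linked to muscle differentiation were set beside the family from a list of 24. Of these, 23 were tested, 1 passed higher in QHMM and 0 higher in STH, where 2.2% of all names tested passed. The median log2 fold change was 0.014, and 3 had an unadjusted edgeR p under 0.05, against 13.7% of all names. The one that passed was miR-208b-3p, a miRNA of slow muscle fibres, with 147 CPM in QHMM and 60.2 CPM in STH (log2 fold change 1.27, adjusted p = 0.0419 from edgeR). Its QHMM libraries had 142, 109 and 189 CPM and its STH libraries 57.9, 65.9 and 56.9 CPM, without overlap, as for 17.2% of all names tested. The estimate stayed between 1.02 and 1.38 in the 14 alternatives, but the adjusted p from edgeR was 0.0618 with upper-quartile factors, 0.0728 with at least 10 counts in every library, 0.0628 with the replicate number as a block, and 0.0557 without QHMM replicate 2, 0.152 without QHMM replicate 3, 0.133 without STH replicate 1, 0.105 without STH replicate 2 and 0.184 without STH replicate 3. Of the 4 most abundant, miR-1 had 0.014 (adjusted p = 0.979), miR-133 had 0.43 (0.329), miR-26a had -0.20 (0.712) and miR-206 had -0.27 (0.582), none past the threshold. miR-133b did not pass the filter and was not tested. miR-499-5p, named here after seeing the results, had a larger estimate than miR-208b-3p but did not pass. Its log2 fold change was 1.35 (adjusted p = 0.0782 from edgeR), with means of 2451 CPM in QHMM and 926 CPM in STH.

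The names that kept the most constant proportion to miR-30c were found by the SD of their log2 ratio to it over the 6 libraries, among 304 known names outside the family with at least 10 CPM. These were miR-7a-1-3p (SD 0.10), miR-29c-3p (0.11), miR-677-5p (0.13), miR-1 (0.16) and miR-545-3p (0.17), where the median over the 304 names was 0.47. Of the family, miR-30e-5p had 0.15, miR-30a-5p 0.20 and miR-30b 0.21. miR-30a-3p (0.34) and miR-30d (0.36) followed miR-30c less closely and would take the 59th and 78th place among the 304 names. The values describe 6 libraries that share one total each, and names of few counts carry counting error in theirs.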

How the data were processed

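Total RNA of longissimus muscle was size-selected on a gel and sequenced on an Ion Proton instrument, 1 library per sample. For each mature sequence the authors deposited raw counts of reads, for sheep, rat, mouse and human miRNAs and predicted loci, with no normalization. The submitters' processing notes name Oar_v3.1 and DESeq, while the aligner, the caller, the mismatches allowed and the treatment of multiply matching reads were not given in the sources used here. All 6 value columns were mapped to samples by their labels (0 left out).

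From these counts 1 row per name was kept, that with the highest total, and CPM were computed. The breed comparison used edgeR 4.0.16 (R 4.3.3; robust quasi-likelihood test, TMM factors, filterByExpr, Benjamini-Hochberg over 1274 names, no covariates), with standard errors from the F statistic. Alternatives were DESeq2 1.42.0, RLE and upper-quartile factors, other filters, summed or separate rows, a replicate block and each library left out. The fit was also run on counts simulated from its own means and dispersions, which cannot test the assumptions of the model. Libraries of a breed were compared for duplicates (smallest chi-square per degree of freedom 109). Levels, arm ratios and exact tests used Python 3.11.15, numpy 2.4.6, pandas 2.3.3 and scipy 1.17.1. Named miRNAs were every miR-30 name, rows with the same seeds, the 5 names of most constant ratio to the most abundant member, and of the muscle list the 4 most abundant and each past the threshold. From that list miR-499-5p was added after seeing the results. List items were matched to the row of their usual guide strand (miR-1 to the name miR-1b, miR-133a to miR-133, miR-378 to the name miR-3557-5p with its sequence, miR-199a to its 3p strand). Members and lists were chosen with earlier results of these data known.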

Additional observations from a re-analysis of the deposited data

How the results depend on the processing

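The count of miR-30 names past the threshold was 0 under each of the 14 alternatives, and over the 9 names the lowest adjusted p in any of them was 0.512 (miR-30c). Of 126 alternative fold changes 100 kept their sign and 26 did not; the cause was not tested. miR-30a-3p, miR-30c and miR-30a-5p kept theirs in all 14. The replicate block gave -0.012 for miR-30e-3p and 0.058 for miR-30d-5p and changed no call among the miR-30 names. Whether the replicate numbers stand for more than a label is not given in the sources used here. Same-numbered libraries correlated by 0.012, 0.198 and 0.163 in their deviations, each best with its own number, and the block gave 27 calls over all names against 28. Other reversed values were, for miR-30e-3p, -0.0040 (upper-quartile factors), -0.032 (at least 10 counts in every library) and -0.0043 (summed rows), for miR-30d-5p 0.00020 (RLE factors) and 0.086 (no filter), for miR-30c-5p 0.062 (no filter) and 0.047 (summed rows), and for miR-30b 0.042 (no filter). Without a filter the median of all names was -0.34. With each library left out the values ran from -0.17 to 0.024 for miR-30b, 0.065 to 0.38 for miR-30c, 0.025 to 0.21 for miR-30a-5p, -0.051 to 0.39 for miR-30d, -0.079 to 0.25 for miR-30e-5p, 0.19 to 0.52 for miR-30a-3p, -0.31 to 0.31 for miR-30e-3p, -0.34 to 0.37 for miR-30d-5p and -0.19 to 0.22 for miR-30c-5p. miR-30d was negative without QHMM replicate 1 (-0.019) or STH replicate 1, and miR-30e-5p without QHMM replicate 2 or STH replicate 1 (-0.0049).

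Over all names the count of 28 was 64 with no filter, 8 with at least 10 counts in every library, 49 with DESeq2 and 16 to 35 with each library left out (16 without QHMM replicate 3, 18 without STH replicate 2 and 16 without STH replicate 3). The 5p seed sum of 38041 CPM became 27333 CPM against the total of all rows and 27336 CPM with summed rows, totals that hold both miR-1 rows, and was 37427 to 39271 CPM with each library left out. With summed rows the arm difference of miR-30c turned from -0.80 to 0.0044. With each library left out it was -1.17 to -0.50 for miR-30c, -0.091 to 0.26 for miR-30e, negative only without QHMM replicate 3, -0.38 to -0.051 for miR-30a, 0.058 to 0.99 for miR-30b and 0.78 to 1.89 for miR-30d. The last 2 rest on 3p counts of 0 to 2 per library. The share of the sum in the muscle fibre sum, 7.35% on average, was 4.30% with all rows of those names (chosen after seeing the data).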
